A study of Mus musculus with 56 samples.

Results

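The mitochondrially encoded transcripts of the mouse heart were taken as every gene in the deposited table whose symbol starts with mt-, the symbols of the genes on chromosome M. There were 35 such genes among the 22864 listed, namely 13 mRNAs, 2 ribosomal RNAs (rRNAs) and 20 transfer RNAs (tRNAs), out of 37 genes that GENCODE M21 annotates on chromosome M. To ask how their level and their time course depend on when food is eaten, polyA-selected RNA-seq libraries of hearts were compared between DRF (feeding restricted to daytime) and NRF (feeding restricted to nighttime). All animals were adult female C57BL/6J mice, an inbred strain, aged 9 weeks and housed in a cycle of 12 h light and 12 h dark. For 7 days they had food in either phase alone. Collection took place at 7 zeitgeber times (ZT, with lights on at ZT0), ZT0, ZT4, ZT8, ZT12, ZT16, ZT20 and ZT24, with 4 replicates for each of the 14 groups, so each regimen had 28 libraries. NRF served as the reference, because mice eat mostly at night. The labels do not say that each replicate was a separate animal, so p-values measure the spread between these libraries, which may be technical.

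Mitochondria carry a small circular genome, and its mRNAs encode core subunits of respiratory chain complexes I, III and IV and of ATP synthase. Both strands are copied as long transcripts, the tRNAs between the genes are cut out, and most of the mRNAs then receive short poly(A) tails. The heart, which depends on oxidative phosphorylation for its contraction, is among the tissues richest in these transcripts.

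The values were deposited under the name TPM, transcript reads per base of gene length scaled to a fixed sum, but they followed a logarithm of reads divided by gene length. Whole reads were therefore recovered and linear TPM was recomputed, and all levels below are on that linear TPM scale. Depth ranged from 29.4 to 53.2 M recovered reads per library (median 37.5 M). Of the 35 members, 34 reached the mean of 1 TPM required for testing, among 13878 genes tested in all. The tRNA gene mt-Tk did not reach it (mean 0.767 TPM, 0 reads in 30 of 56 libraries). mt-Tv, mt-Ts1 and mt-Tt were tested but had 0 reads in 11, 21 and 2 libraries.

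The gene order bears on how reads could be assigned. Several neighbours share bases, and the 20 tRNA genes are 59 to 75 bases long, shorter than the library fragments of 250 to 300 bp, so a fragment counted at a tRNA gene also covers sequence next to it. The library kit does not mark strand, so reads from a gene and from the opposite strand cannot be told apart, which also touches mt-Nd6, the 1 mRNA on the minus strand, whose end shares 14 bases with mt-Nd5. The tRNA trio between mt-Nd1 and mt-Nd2 shows this packing. It is printed because its members carried the largest fitted daily amplitudes under NRF. It is given as RNA sequence in DNA letters, 5′ to 3′ on each gene's own strand, with bases shared with a neighbouring gene in capitals. mt-Ti lies on the plus strand of GRCm38 chrM:3706-3774, mt-Tq on the minus strand of chrM:3772-3842 and mt-Tm on the plus strand of chrM:3845-3913.
mt-Ti: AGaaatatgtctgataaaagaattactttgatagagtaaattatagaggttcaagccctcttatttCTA
mt-Tq: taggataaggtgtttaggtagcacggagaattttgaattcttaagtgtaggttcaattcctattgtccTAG
mt-Tm: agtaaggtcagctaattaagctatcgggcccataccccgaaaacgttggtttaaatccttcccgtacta
The first 2 bases of mt-Ti are the last of mt-Nd1, and its last 3 lie opposite the last 3 of mt-Tq. A larger overlap joins the 2 ATP synthase mRNAs, where the last 43 bases of mt-Atp8 are also the first of mt-Atp6. They are in capitals in the last 70 bases of mt-Atp8 (chrM:7900-7969, plus strand).
mt-Atp8 last 70 bases: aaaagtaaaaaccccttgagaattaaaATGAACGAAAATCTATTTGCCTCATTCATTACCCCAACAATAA

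Copies of mitochondrial DNA in the nuclear genome bear on the counts as well. By BLAST against the annotated nuclear transcripts, 14 of the 35 members had a match and 21 had none. The rest of the nuclear genome was not searched, so a member without a match may still have a nuclear copy. For 6 mRNAs the match had at least 99% identity over at least 50% of the gene. mt-Co2 matched Gm28661 without a mismatch over 681 bases, mt-Atp6 matched Gm10925 over 678, mt-Co3 matched Gm28437 over 783 and mt-Nd4l matched Gm10222 over 294. The first 876 of the 1378 bases of mt-Nd4 matched Gm28439 without a mismatch. mt-Nd3 differed from Gm28438 by 1 substitution in 345 bases, T3C (the mitochondrial base first, positions counted from 1 at the 5′ end of the mitochondrial gene). The base that differs is in capitals in the pair below, which shows how little sequence separates a mitochondrial gene from its copy.
mt-Nd3 bases 1 to 32: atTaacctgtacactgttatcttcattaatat
Gm28438 aligned: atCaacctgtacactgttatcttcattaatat
mt-Co1 matched Gm13340 at 97.6% identity over its 1545 bases, and Gm29216 over 483 bases with 1 substitution, A1066T. The other 6 matches, those of mt-Nd2, mt-Nd5, mt-Nd6, mt-Cytb, mt-Rnr2 and mt-Ty, were at 88.4 to 96.7% identity, and mt-Atp8 matched Gm10925 over the 43 bases it shares with mt-Atp6. How reads that map to more than 1 place were treated is not given in the sources used here. The levels of the 6 mRNAs with a near-identical match are therefore uncertain, and those of other members may be.

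**Figure D1:**
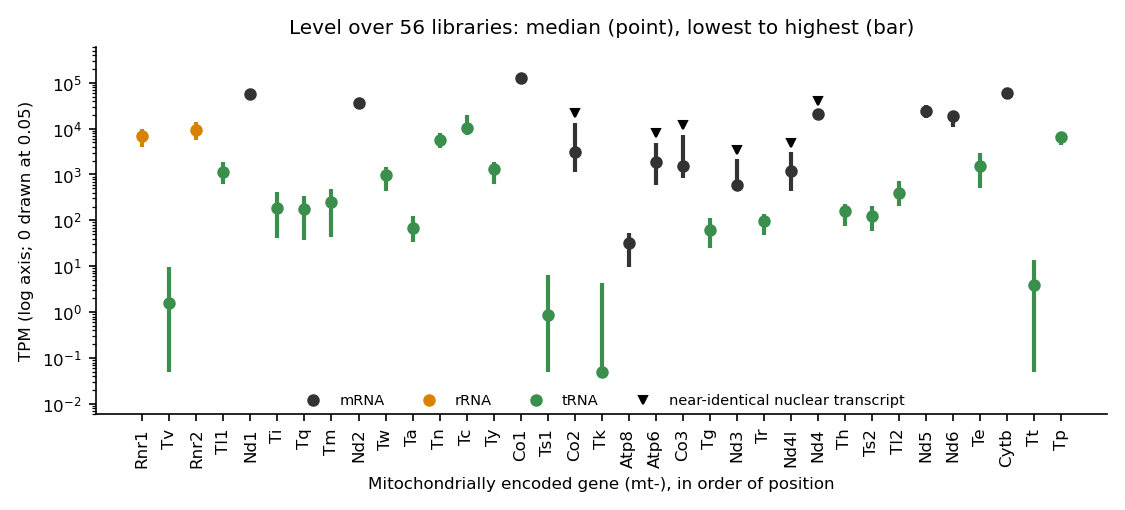
Level of each of the 35 mitochondrially encoded genes (TPM, log axis, with 0 drawn at 0.05) in order of position, the point being the median and the bar running from the lowest to the highest of 56 libraries, coloured by class, with triangles above the 6 mRNAs that have a near-identical nuclear transcript. Bars of the 7 abundant mRNAs (means of 18822 TPM or more) are short, those of mt-Co2, mt-Co3, mt-Atp6, mt-Nd4l and mt-Nd3 are long, and mt-Tk, mt-Tv and mt-Ts1 lie near 0.

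Mean levels ran from 0.767 to 129339 TPM among the members, and the 7 most abundant genes of the whole heart by TPM were all mitochondrial mRNAs. mt-Co1, the catalytic core subunit of cytochrome c oxidase (complex IV), averaged 129339 TPM and took 42.5% of the mitochondrial reads. mt-Cytb, the only mitochondrially encoded subunit of complex III, averaged 58891 TPM. The complex I subunits mt-Nd1, mt-Nd2, mt-Nd5, mt-Nd4 and mt-Nd6 averaged 56754, 35433, 23930, 20830 and 18822 TPM. The next gene that is not mitochondrial, the oxygen-binding Mb (myoglobin), averaged 11381 TPM. The 2 rRNAs, which have at most short tails and are selected poorly by oligo-dT, averaged 7064 TPM (mt-Rnr1) and 9373 TPM (mt-Rnr2).

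The 7 abundant mRNAs were steady across libraries, and the other 6 mRNAs were not. The coefficient of variation over all 56 libraries was 6.00 to 14.3% for the abundant 7. Among the complex IV subunits it was 59.7% for mt-Co3, and mt-Co2 ranged 11.6-fold, from 1156 to 13453 TPM. mt-Nd4l, mt-Nd3 and mt-Atp6 had coefficients of 48.1, 44.9 and 44.9%, and mt-Atp8 had 29.4% around a mean of 31.8 TPM. After subtraction of group means, the abundant mRNAs deviated together among libraries (Pearson r 0.79 to 0.95 over 21 pairs, median 0.90), while pairs among the other 6 gave r from -0.16 to 0.49 (median 0.16). These correlations describe 56 libraries in which all members share depth and scaling. All but 1 (mt-Atp8) of the 6 variable mRNAs match a near-identical annotated nuclear transcript. The part of nuclear copies in that spread was not tested.

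Among the tRNAs, those on the minus strand were counted more often. The 8 minus-strand tRNAs had a median of 1389 TPM (1.03 to 11182) and the 12 plus-strand ones a median of 142 TPM (0.767 to 1164). mt-Tc, mt-Tp and mt-Tn, all on the minus strand, led with 11182, 6520 and 5673 TPM. Since strand was not kept by the kit, part of these counts can come from the opposite strand, and that part was not tested.

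Hearts were checked against their defining markers first. All 10 cardiomyocyte markers were listed, and their summed level, scaled to the nuclear genes, was 50691 to 71187 TPM under DRF (median 66705) and 62733 to 71182 under NRF (median 66386). The adult skeletal muscle myosins Myh1, Myh2 and Myh4 were not listed. Several other lists differed between the regimens on the same scale, with permutation p-values within ZT adjusted over 11 marker lists. Leukocyte (log2 difference -0.23, adjusted p = 0.0047 by permutation), smooth muscle (-0.20, 0.020), endothelial (-0.12, 0.0047) and fibroblast (-0.10, 0.034) markers were lower under DRF. Atrial markers (0.96, adjusted p = 0.034 by permutation; 175 to 9066 TPM against 211 to 7178) and nuclear-retained RNAs (0.23, 0.034; 105 to 372 against 151 to 333) were higher. The share of mitochondrial reads is set against the nuclear-retained list and the cardiomyocyte list below, and the part of these lists in the other results was not tested. In such bulk tissue, fewer cells of a type and less RNA per cell cannot be told apart.

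The share of all reads that came from mitochondrial genes was slightly higher under DRF. It was 21.7% ± 1.46 (SD, n = 28) under DRF and 20.3% ± 1.57 (SD, n = 28) under NRF, a difference of 1.32 percentage points that is smaller than either SD. The mRNAs held nearly all of it, with 20.6% ± 1.43 against 19.3% ± 1.48. The rRNAs held 0.955% ± 0.214 against 0.979% ± 0.276, and the tRNAs 0.0925% ± 0.0150 against 0.0892% ± 0.0146. The regimens were furthest apart at ZT20, late in the dark phase, when NRF mice have eaten and DRF mice have fasted for hours. There the share was 22.4 to 24.8% in the 4 DRF libraries and 19.4 to 20.4% in the 4 NRF libraries, and the groups did not overlap. At ZT4 the DRF mean was the lower one, by a difference of -0.165 percentage points. The ranges overlapped at every other time. No p is given for these sums, since they pool the members.

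The share was also set against depth, nuclear-retained RNA and the cardiomyocyte list. Over the 56 libraries the share correlated with the summed nuclear-retained RNAs (r = 0.40, permutation p adjusted over 12 relations 0.016; rho = 0.34, adjusted 0.125), and r was 0.33 without the 2 libraries farthest from the median. With group means subtracted r was 0.42 (permutation p adjusted 0.015; rho = 0.28, adjusted 0.216), and 0.29 without the 2 farthest libraries, so the share also went with this list among libraries of the same group by r but not by rank. Within NRF alone r was 0.15 and within DRF 0.46 (permutation p adjusted 0.602 and 0.064, n = 28 each). With depth r was -0.07 over all libraries, -0.38 within NRF (permutation p adjusted 0.137) and 0.20 within DRF. With the cardiomyocyte list it was 0.08 over all, -0.15 within NRF and 0.36 within DRF (permutation p adjusted 0.137). The signs were opposite in the 2 regimens for both measures, and none passed the threshold after adjustment.

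**Figure D2:**
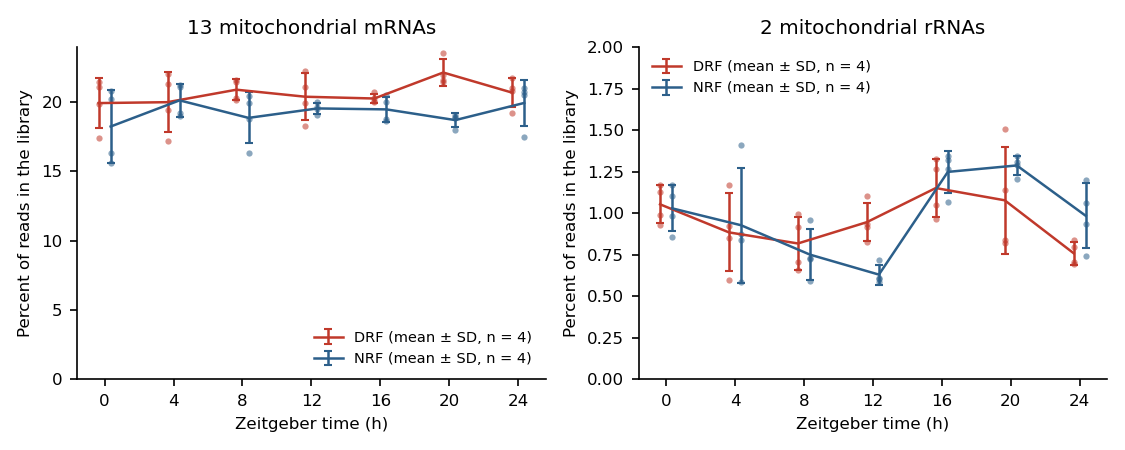
Share of reads in each library from the 13 mitochondrial mRNAs (left) and the 2 rRNAs (right), in percent, against ZT in hours, with faint points for libraries and lines and bars for the mean ± SD (n = 4) of DRF and NRF. At ZT20 the DRF libraries lie above all NRF libraries for the mRNAs (lowest DRF library 21.4%, highest NRF library 19.1%), and at ZT12 for the rRNAs (0.828% against 0.718%).

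Averaged over the day, 2 of 34 members differed between regimens, both higher under DRF. Of the 13878 genes tested 26.1% were called, 1.68% higher and 24.5% lower, so the members' share of higher calls was above the background. The excess of lower calls among all genes depended on the scaling. With libraries scaled by the median of ratios, 5.82% of genes were called higher and 7.37% lower. The members held 40.9% of TPM under DRF and 39.1% under NRF, so the TPM of all other genes depends on them. With TPM over the nuclear genes alone, 351 of 13878 genes were called higher and 1279 lower, and the same 2 members were called. mt-Cytb (chrM:14145-15288, plus strand) ranged from 49924 to 70489 TPM under DRF (median 60904) and from 43846 to 64363 under NRF (median 57286). The ranges overlapped, but the mean was higher under DRF at 7 of 7 times, and the log2 difference was 0.12 ± 0.036 (SE, limma, adjusted p = 0.012). mt-Nd4 (chrM:10167-11544, plus strand), a proton-pumping subunit of complex I, ranged from 16528 to 25139 TPM under DRF (median 21763) and 15944 to 22884 under NRF (median 20627). Its mean was higher at 6 of 7 times, with a log2 difference of 0.11 ± 0.041 (SE, limma, adjusted p = 0.033), and its first 876 bases are shared with Gm28439.

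These calls were small and close to the threshold. Without replicate 1, replicate 2, ZT8 or the filter on low genes, and on the deposited values, 0 members were called. Without ZT20 only mt-Tp was called, and without replicate 3, ZT16 or ZT24 only mt-Cytb was. Without replicate 4 mt-Nd4 was no longer called, and mt-Cytb and mt-Tp were. With median-of-ratios scaling, which moved the median difference of all genes by 0.05 on the log2 scale, 6 members were called higher (mt-Co1, mt-Nd4, mt-Nd5, mt-Nd6, mt-Cytb and mt-Tp), against the 5.82% of all genes.

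Among the abundant mRNAs, those farther along the genome from the rRNA genes had the larger differences, a trend that was not itself tested. On the log2 scale mt-Rnr1 and mt-Rnr2 differed by 0.02 and -0.01, mt-Nd1 and mt-Nd2 by 0.02 and 0.03, mt-Co1 by 0.06, and mt-Nd4, mt-Nd5, mt-Nd6 and mt-Cytb by 0.11, 0.12, 0.13 and 0.12. mt-Nd5 and mt-Nd6 did not pass the test (limma, adjusted p = 0.061 and 0.067). All 7 abundant mRNAs had a positive difference, but they deviate together and are not 7 separate observations. Over the 34 members, 21 differences were positive with a median of 0.03, beside 3075 positive of 13878 and a median of -0.05 over all genes. With median-of-ratios scaling 26 of 34 were positive with a median of 0.09, beside a median of 0.0035 over all genes.

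**Figure D3:**
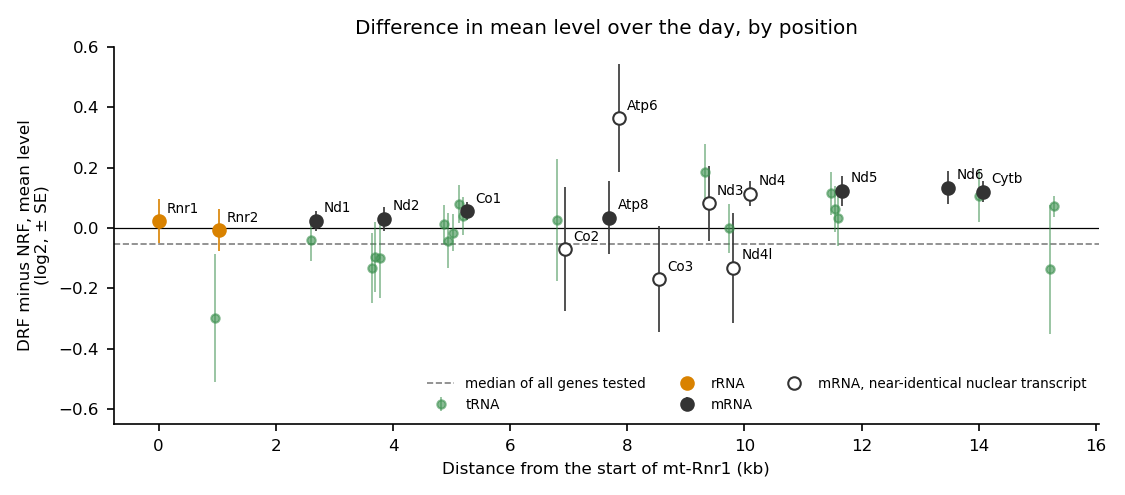
Difference in mean level over the day (log2, DRF minus NRF, bars ± SE) of each of the 34 tested members against distance in kb from the start of mt-Rnr1, with open symbols for mRNAs that have a near-identical nuclear transcript and a dashed line at the median of all genes tested (-0.05). Among the abundant mRNAs the differences run from 0.02 at mt-Nd1 to 0.13 at mt-Nd6. Most tRNAs and the open symbols other than mt-Nd4 scatter with wider bars.

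The make-up of the mRNA pool was compared through ratios within each library, which do not depend on scaling. Of 16 ratios, 2 differed by a permutation test within ZT with adjustment over the 16. mt-Cytb as a part of all mitochondrial mRNAs was higher under DRF by 0.06 on the log2 scale (-2.56 ± 0.0377 against -2.62 ± 0.0601, SD, n = 28; permutation p adjusted 0.0008). mt-Nd1 was lower by 0.05 (-2.66 ± 0.0465 against -2.61 ± 0.0645; permutation p adjusted 0.011). The mt-Nd2 part was also lower by 0.05 and the mt-Nd5 and mt-Nd6 parts higher by 0.06 and 0.08, none past the threshold (permutation p adjusted 0.070 each). Without replicate 2 none of the 16 passed, and without replicate 3 or 4 there were 5.

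To determine where in the day the regimens differed, each ZT was compared on its own. No member was called lower under DRF at any time with the settings as stated. mt-Atp8 at ZT12 came closest (log2 difference -0.80 ± 0.263, SE, limma, adjusted p = 0.0505) and passed with a pseudocount of 0.1 or without DRF ZT12 replicate 1 or 2. Of all genes, 8.29, 0.115 and 0.295% were called lower at the first 3 times (ZT0 to ZT8), and 6.47, 6.25, 11.4 and 4.43% at the last 4 (ZT12 to ZT24). At ZT20, 3 of 34 members were called higher under DRF, against 3.39% of all genes. For mt-Cytb the DRF libraries held 59599, 65635, 67076 and 69119 TPM, and the NRF libraries 52229, 52416, 52501 and 57093. For mt-Nd5 they held 24587, 26547, 28019 and 28029 TPM against 20477, 20505, 20870 and 21207, and for mt-Co1 129567, 139798, 143826 and 151038 against 119439, 119587, 120712 and 127575. In all 3 the lowest DRF library lay above the highest NRF library. The log2 differences were 0.29 ± 0.094 (SE, limma, adjusted p = 0.033) for mt-Cytb, 0.37 ± 0.129 (adjusted p = 0.047) for mt-Nd5 and 0.21 ± 0.072 (adjusted p = 0.041) for mt-Co1. Counting non-overlap alone, 6 members, all abundant mRNAs, had their 4 DRF libraries above the 4 NRF libraries at ZT20, against 4.45% of all genes. Nuclear-retained RNAs stood apart at the same time, with 247 to 341 TPM under DRF and 151 to 229 under NRF and no overlap, and their part in the ZT20 differences was not tested. Leaving out DRF ZT20 replicate 1, 3 or 4, or NRF ZT20 replicate 2, 3 or 4, ended all 3 calls, and without NRF ZT20 replicate 1 only mt-Cytb was called. With median-of-ratios scaling mt-Co1 was lost (limma, adjusted p = 0.060), and the 2 of 34 still called were a smaller share than the 9.24% of all genes, so the members' share at ZT20 was above the background with TPM scaling but not with this one.

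At the change from light to dark, ZT12, the rRNAs stood apart instead. mt-Rnr1, the RNA of the small mitochondrial ribosomal subunit, held 5962, 6697, 7311 and 7874 TPM under DRF and 4072, 4671, 4819 and 5124 under NRF. The groups did not overlap, and the log2 difference was 0.57 ± 0.181 (SE, limma, adjusted p = 0.041). It was the 1 member called, against 1.27% of all genes called higher, or 4.5% with median-of-ratios scaling, which is more than 1 in 34. mt-Rnr2, the RNA of the large subunit, did not overlap either (7800 to 10131 TPM against 5906 to 7006) but was not called. These 2 were the only members with all DRF libraries above the NRF libraries at ZT12, against 2.57% of all genes. RNAs without a poly(A) tail differed in the same direction at ZT12, with 272 to 788 TPM under DRF and 228 to 269 under NRF and no overlap, and their part in the rRNA difference was not tested. The mt-Rnr1 call was lost without any 1 of 6 of the 8 libraries (those other than DRF ZT12 replicate 1 and NRF ZT12 replicate 4).

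At ZT0 only 1 member was called, a share near the 3.03% of all genes called higher and under the 6.98% with median-of-ratios scaling. It was mt-Tp, a minus-strand tRNA separated from the end of mt-Cytb by mt-Tt. Its DRF libraries held 5839, 6273, 6603 and 6655 TPM and its NRF libraries 4444, 5399, 5447 and 5588, with no overlap (log2 difference 0.28 ± 0.084, SE, limma, adjusted p = 0.021). It was lost without DRF ZT0 replicate 1 or 2 or NRF ZT0 replicate 1. mt-Tp was also the 1 member whose DRF libraries lay above the NRF libraries (5.2% of all genes). At ZT4, ZT8, ZT16 and ZT24 limma called 0 members, beside 0.324, 0.0937, 0.656 and 4.43% of all genes called higher. At an unadjusted p under 0.05, in either direction, there were 4, 3, 1 and 4 of 34 members. For all 13878 genes these counts were 1665, 2062, 3364 and 3373, so the members' share was at no time above that of all genes. By non-overlap alone, 5 members lay higher under DRF at ZT8 (mt-Nd2, mt-Nd5, mt-Cytb, mt-Tn and mt-Tr, against 1.53% of all genes) and 2 at ZT24 (mt-Cytb and mt-Ts1, 7.01%). There was none at ZT4 (1.8%) or ZT16 (1.74%). In the opposite direction, all NRF libraries lay above all DRF libraries for mt-Tn at ZT0 (10.3% of all genes), mt-Atp8 at ZT12 (11%) and mt-Tm at ZT24 (6.42%). No member did so at ZT4, ZT8, ZT16 or ZT20 (1.07, 6.09, 17.8 and 15.3% of all genes).

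Time of day was then examined within each regimen with a 24-h cosine fitted to 28 libraries. Under NRF 12 of 34 members were rhythmic, 35.3%, which is near the 37.3% of all genes. With median-of-ratios scaling 11 of 34 were, a smaller share than the 6472 of all 13878 genes. The 12 calls with TPM scaling fell unevenly among the classes. None of the 13 mRNAs was called (1 had an unadjusted p under 0.05), whereas both rRNAs and 10 of the 19 tRNAs were. The fitted amplitudes of the 7 abundant mRNAs were 0.02 to 0.13 on the log2 scale. As parts of the mRNA pool, mt-Nd2 (amplitude 0.07, peak ZT20.9) and mt-Nd1 (0.05, ZT22.8) did pass a permutation test of rhythm under NRF (p adjusted over the 16 ratios 0.022 and 0.033). Neither passed under DRF (0.744 and 0.759), and the differences in rhythm did not pass (0.114 and 0.161). Of the 12 rRNA and tRNA genes tested in the first 5.26 kb, before mt-Co1, 10 were called, and of the 9 tRNA genes beyond it 2 were, mt-Te and mt-Tp. The mt-Tp call was lost with median-of-ratios scaling, without the filter on low genes, on the deposited values, and without replicate 2, replicate 3, ZT0, ZT4 or ZT12. The mt-Te call was lost without replicate 2, replicate 3, ZT0 or ZT12, and its fitted amplitude was 0.39, against a difference of 1.13 on the log2 scale between ZT0 and ZT24 under NRF.

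The rRNAs of night-fed hearts were low at dusk and rose within 4 h. Under NRF mt-Rnr2 held 5906, 5992, 6140 and 7006 TPM at ZT12, 11106 to 13597 at ZT16, and 12120, 12858, 13244 and 13564 at ZT20. Every ZT16 and ZT20 library lay above every ZT12 library. The fitted amplitude was 0.47 ± 0.084 (SE) on the log2 scale with a peak at ZT19.8 (limma F test, adjusted p = 0.0003). mt-Rnr1 followed, with 4672 ± 442 TPM at ZT12 and 8587 ± 824 at ZT20 (SD, n = 4) and an amplitude of 0.36 ± 0.071 peaking at ZT20.9 (limma, adjusted p = 0.0010). After subtraction of group means the 2 rRNAs correlated with each other at r = 0.88 over 56 libraries, and with the 7 abundant mRNAs at 0.00 to 0.53 (median 0.32). The ratio of rRNA to mRNA in each library had a fitted amplitude of 0.45 under NRF, peaking at ZT20.2, and of 0.19 under DRF. The permutation p adjusted over the 16 ratios was 0.0016 under NRF and 0.759 under DRF, and the difference in rhythm of this ratio did not pass (0.114).

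The isoleucine, glutamine and methionine tRNA genes had the largest fitted amplitudes under NRF. The fit treats ZT0 and ZT24 as the same phase, but under NRF the tRNAs differed between these times by a median of 0.61 on the log2 scale. The part of that shift in the fitted tRNA rhythms was not tested. Under NRF mt-Tm held 73.6, 122, 203 and 220.3 TPM at ZT4 and 228, 413, 457 and 475 at ZT20, and every ZT20 library was above every ZT4 library. Its fitted amplitude was 0.74 ± 0.132, 2.79-fold from trough to peak, with the peak at ZT17.6 (limma, adjusted p = 0.0003). mt-Ti and mt-Tq, which share 3 bases on opposite strands, had amplitudes of 0.62 ± 0.105 and 0.61 ± 0.107 with peaks at ZT17.1 and ZT17.9 (limma, adjusted p = 0.0002 each). The trio deviated together among libraries (r 0.82 to 0.86) but hardly with the abundant mRNAs (r -0.06 to 0.24). The fragments that cover them overlap, so they are not 3 separate observations. The leucine tRNA mt-Tl1, which follows mt-Rnr2, and mt-Tw, mt-Tn, mt-Tc and mt-Ty peaked between ZT15.5 and ZT22.1 with amplitudes of 0.30 to 0.45, whereas mt-Te and mt-Tp peaked earlier, at ZT13.0 and ZT13.6. Leaving out replicate 2 reduced the 12 calls to 7 (mt-Rnr1, mt-Rnr2, mt-Ti, mt-Tq, mt-Tm, mt-Tn and mt-Ty). RNAs that lack a poly(A) tail did not pass a rhythm test in the same libraries (fitted amplitude 0.44, permutation p = 0.225). Their medians were 844, 906 and 838 TPM at ZT0, ZT4 and ZT8 and 419 and 447 TPM at ZT16 and ZT20, when the rRNAs and the tRNA trio were high. At ZT12, when the rRNAs were lowest, the median was 257 TPM.

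**Figure D4:**
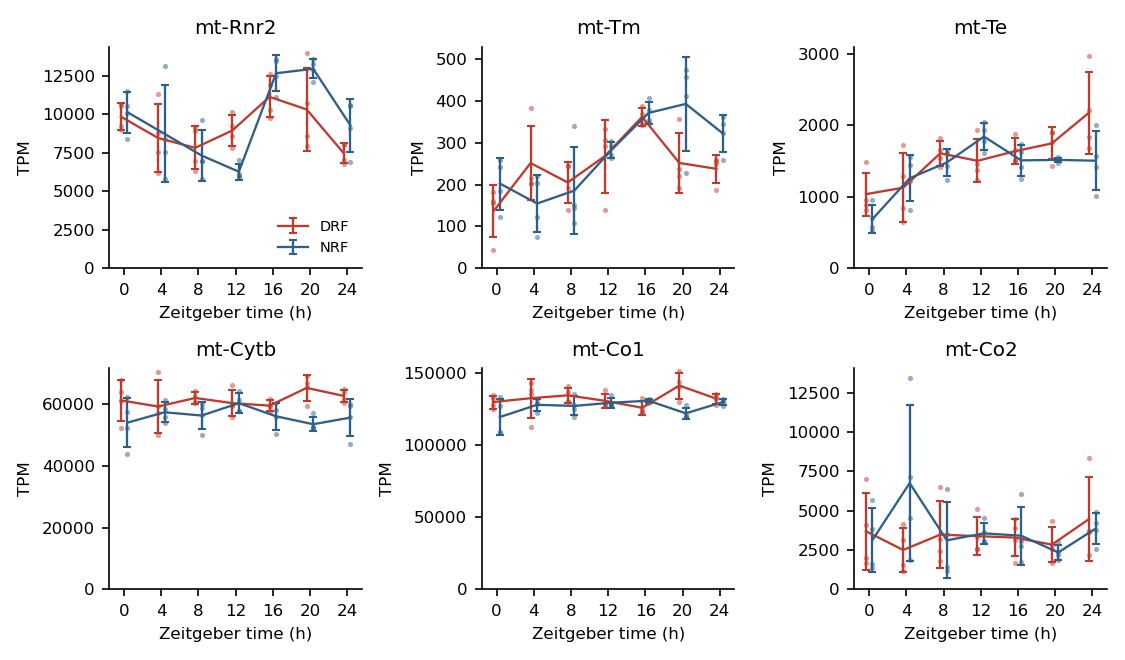
Level (TPM) against ZT in hours for mt-Rnr2, mt-Tm, mt-Te, mt-Cytb, mt-Co1 and mt-Co2, 1 panel each, with faint points for libraries and lines and bars for the mean ± SD (n = 4) of DRF and NRF. Under NRF mt-Rnr2 goes from 6261 TPM at ZT12 to 12946 at ZT20, whereas the NRF means of mt-Cytb stay between 53560 and 60395 TPM.

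Under DRF 3 of 34 members were rhythmic, 8.82%, against 32.4% of all genes. These were mt-Rnr2 (amplitude 0.24 ± 0.073, peak ZT17.4), mt-Tl1 (0.30 ± 0.080, ZT15.9) and mt-Ti (0.45 ± 0.140, ZT14.9), with limma adjusted p = 0.039, 0.015 and 0.038. All 3 were also called under NRF. None of the 13 mRNAs had an unadjusted p under 0.05 by limma. Over all 34 members, 24 had the larger fitted amplitude under NRF, beside 7223 of all 13878 genes. mt-Tm had an amplitude of 0.39 ± 0.149 and mt-Tq of 0.40 ± 0.136 under DRF, and neither passed (limma, adjusted p = 0.1004 and 0.066). Without replicate 2, replicate 3 or ZT16 no member was called under DRF. Without ZT8 or ZT20 only mt-Tl1 was, without ZT4 there were 6 and without ZT24 there were 8.

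The difference in rhythm between regimens was tested directly, and limma called 0 of 34 members, against 27.6% of all genes. The lowest adjusted p was 0.063, for mt-Rnr2. At an unadjusted p under 0.05 there were 4 members (mt-Rnr1, mt-Rnr2, mt-Tm and mt-Co3), beside 5417 of all 13878 genes. The voom fit of the reads also called 0. Thus the larger number of rhythmic members under NRF is not shown to be a difference between regimens. Without replicate 1, 4 members were called (mt-Rnr2, mt-Ti, mt-Tq and mt-Tm), without ZT0 2 were (mt-Rnr1 and mt-Ty), and without ZT4 or ZT8 only mt-Rnr2 was.

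**Figure D5:**
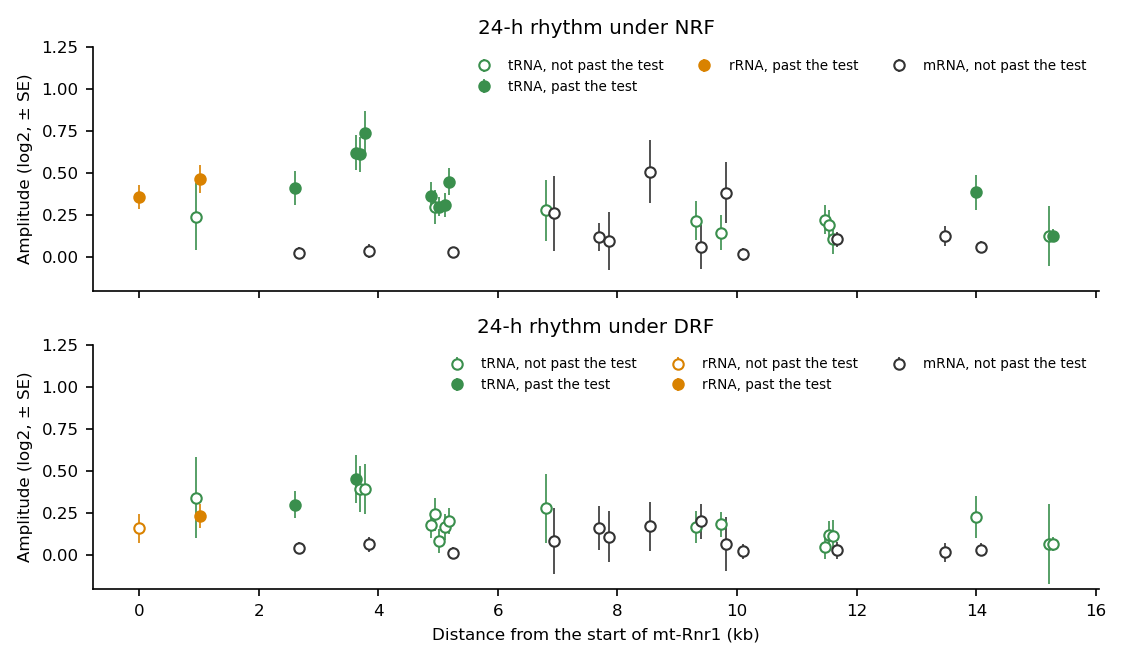
Fitted 24-h amplitude (log2 scale, bars ± SE) of each of the 34 tested members against distance in kb from the start of mt-Rnr1, under NRF (top) and DRF (bottom), coloured by class and filled where the rhythm test was passed. The highest amplitudes, 0.61 to 0.74 under NRF, belong to mt-Ti, mt-Tq and mt-Tm near 3.7 kb, and the abundant mRNAs reach at most 0.13.

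ZT0 and ZT24 are the same clock time, so a difference between them is not a daily rhythm. Most tRNAs nevertheless read higher at ZT24, 18 of 19 under DRF (median log2 difference 0.62) and 16 of 19 under NRF (0.61), beside medians of -0.02 and -0.07 over all genes. At an unadjusted p under 0.05 by limma there were 16 and 12 of the 19 tRNAs, beside 1698 and 1275 of all 13878 genes. mt-Te, the glutamate tRNA, held 815, 886, 959 and 1479 TPM at ZT0 and 1686, 1839, 2206 and 2971 at ZT24 under DRF. Under NRF it held 516, 579, 703 and 947 TPM at ZT0 and 1012, 1420, 1572 and 2008 at ZT24. The groups did not overlap in either regimen. The log2 differences were 1.08 ± 0.218 under DRF (SE, limma, adjusted p = 0.011) and 1.13 ± 0.218 under NRF (adjusted p = 0.014).

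With TPM scaling under 1% of all genes were called between these times. Under DRF 0.468% of all genes were called in either direction and 0.238% higher, among them mt-Te and mt-Tg, the glycine tRNA (35.7 to 40.4 TPM at ZT0 and 65.7 to 114 at ZT24, log2 difference 1.06 ± 0.241, limma, adjusted p = 0.025). Under NRF 0.0576% were called, and mt-Te was the only gene of 13878 called higher (0.00721%). With median-of-ratios scaling the shares called either way were 1.62% under DRF (0.987% higher) and 0.0504% under NRF, where 2 genes (0.0144%) were higher, and mt-Te in both regimens and mt-Tg under DRF were still called. The 2 rRNAs went the other way and did not pass (median log2 difference -0.51 under DRF and -0.11 under NRF). RNAs without a poly(A) tail also differed between these times, in the direction opposite to the tRNAs. The summed list was 793 to 1930 TPM at ZT0 and 217 to 365 at ZT24 under DRF, and 607 to 1054 against 215 to 310 under NRF, with no overlap. Its part in the tRNA result was not tested. The mt-Te call was lost without DRF ZT0 replicate 2 or 3 or DRF ZT24 replicate 1 under DRF (that of mt-Tg without any of these, DRF ZT0 replicate 1 or 4 or DRF ZT24 replicate 3), and without NRF ZT0 replicate 1 or 4 or NRF ZT24 replicate 1, 3 or 4 under NRF.

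Nuclear genes that serve the mitochondrial genome were examined next, from 9 lists holding 135 tested genes. In the 5 lists for transcription, replication, RNA processing, translation and regulation of biogenesis, 61 genes were tested, and 1 was higher (1.64%, against 1.68% of all genes) and 9 lower (14.8%, against 24.5%) in mean level under DRF. Neither share was above that of all genes. The higher one was Ppargc1a, a coactivator that drives mitochondrial biogenesis (log2 difference 0.27 ± 0.054, SE, limma, adjusted p = 0.0004). The lower ones included its relatives Ppargc1b (-0.19) and Pprc1 (-0.15), Lig3 (-0.09), a DNA ligase of mitochondria, and Rexo2 (-0.10), which degrades short RNAs in mitochondria. With median-of-ratios scaling none of the lower calls over all 9 lists remained and 12 genes were called higher (8.89%, against 5.82% of all genes), so of the calls made here only that of Ppargc1a held under both scalings.

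In rhythm the same machinery was near the background of all genes. Of the 61 genes, 20 were called under NRF and 23 under DRF (32.8 and 37.7%, against 37.3 and 32.4% of all genes), and 17 differed in rhythm (27.9%, against 27.6%), so the genes named next are single calls and not a trait of the group. For transcription of mitochondrial DNA, 4 of 10 genes differed in rhythm by limma, namely the factor Tfb2m (adjusted p = 0.0060), Mterf1a (0.016), the RNA polymerase Polrmt (0.018) and Tfam (0.038), which packages and activates the genome. Tfam had an amplitude of 0.17 ± 0.023 under DRF, peaking at ZT4.5, and of 0.08 ± 0.027 under NRF, peaking at ZT5.9. Tfb2m peaked at ZT12.1 under NRF, with an amplitude of 0.08, and was not rhythmic by the test under DRF. In RNA processing 5 of 23 genes differed, led by Rexo2, which peaked at ZT23.8 under NRF and ZT8.0 under DRF, and in translation 4 of 11, led by Mtrf1l and the initiation factor Mtif2 (limma, adjusted p = 0.0001 and 0.0002).

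For the nuclear-encoded partners of the mitochondrial subunits, few differences between regimens passed a direct test. Of 74 tested subunits of complexes I, III and IV and ATP synthase, 23 passed the rhythm test with NRF (31.1%, against 37.3% of all genes) and 2 with DRF (2.70%, against 32.4%). The difference in rhythm itself passed for 1 (1.35%, against 27.6%), so the unequal counts are not shown to be a difference between regimens. This was Ndufa5 of complex I (limma, adjusted p = 0.029), which had an amplitude of 0.14 ± 0.029 under NRF and 0.03 ± 0.043 under DRF. In mean level Ndufb3 (-0.12), Uqcrq (-0.11) and Cox7a1 (-0.12) were lower (4.05% of the 74, against 24.5% of all genes) and none was higher (against 1.68%). Those 3 calls were among those lost with median-of-ratios scaling, which called 6 of the 74 higher (8.11%, against 5.82% of all genes).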

How the data were processed

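PolyA RNA was sequenced as 150 bp pairs. Per the submitters' processing notes the tools include HISAT2 2.0.5, featureCounts 1.5.0-p3 and genome build mm10. Strand use and the treatment of multi-mapping reads are not given in the sources used here. The deposited values, which the authors named TPM, equalled a library constant times log2(1 + scaled reads) divided by exon length, not the linear TPM that the planned tests assumed. Reads were recovered with GENCODE M21 exon lengths (GRCm38). Of 22864 genes, 22011 came out whole with the annotated length, 830 with a length found by search, 22 were too abundant to test (9 of them members) and kept the annotated length, and 1 was left out. Of 1197205 values, more than 99.9% were within 0.1 of a whole read. Counts cover sampling error only, since the protocol names no molecular identifiers.

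TPM was recomputed, and genes averaging 1 TPM or more were tested on the log2(TPM + 1) scale, which understates changes of low genes, with limma 3.58.1 in R 4.3.3 (eBayes, trend) and Benjamini-Hochberg adjustment over 13878 genes, called under 0.05. Rhythm was tested jointly (F) on a cosine and a sine of 24 h. Mean levels were compared in a model with a mean per ZT, and single times in a model of 14 group means, with adjustment within each ZT. Ratios and shares used 100000 permutations. blastn 2.17.0+ compared members with annotated nuclear transcripts. Scripts were tested on simulated data. Groups came from the labels. The members and lists were chosen with earlier results of these data known. Members called in a test, and in the lists the genes with the lowest adjusted p, were named. Alternatives were other scalings, pseudocounts, filters, the deposited values, voom, a replicate block and leaving out replicates or times. Same-numbered libraries did not deviate together (mean r 0.02).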

Additional observations from a re-analysis of the deposited data

Results flagged for a closer look

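In 154 groups of 4 libraries, 9 values lay apart from the other 3 by Dixon's test, and chance flags about 1 in 20 groups. Replicate 2 of NRF at ZT24 had 18.4% of reads from mitochondrial genes, against 21.7 to 22.3% in the other 3, and 17.5% from mitochondrial mRNAs. Replicate 4 of NRF at ZT12 had 0.718% of reads from the rRNAs, above the other 3. In NRF at ZT20, replicate 1 was high for mt-Cytb (57093 TPM) and mt-Co1 (127575 TPM), although still under every DRF library. mt-Nd4 reached 23622 TPM in replicate 3 of DRF at ZT20, and mt-Co1 134403 TPM in replicate 3 of NRF at ZT12. mt-Tm reached 384 TPM in replicate 4 of DRF at ZT4 and fell to 187 TPM in replicate 3 of DRF at ZT24.

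The rhythm of Gm28661, the nuclear copy identical to mt-Co2 over 681 bases, differed between regimens (limma interaction test, adjusted p = 0.00736), with fitted peaks at ZT2.60 under NRF and ZT16.4 under DRF, where the rhythm itself did not pass (limma, adjusted p = 0.165). No other near-identical copy was called in this test, which called 27.6% of all genes. mt-Co2 itself was not called (limma, adjusted p = 0.661).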

How the results depend on the processing

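Of 204 recomputed counts and values of comparisons, 138 kept their size or call, and of 413 recomputed values of single members 308 did. Counts and fitted amplitudes cannot change direction, and 0 of the other values did. The cause of the shifts was not tested. Members called in mean level were 2, but 0 without the filter on low genes or on the deposited values, 5 with voom, 6 with median-of-ratios scaling, 4 without ZT4 or as the mean of the ZT differences, 0 without ZT8, 1 without ZT16, ZT20 or ZT24, and 0 to 2 without 1 replicate number. Rhythmic members under NRF were 12, and 7 to 12 without 1 replicate number. Under DRF they were 3, but 1 without the filter, 5 with voom, 6 without ZT4, 1 without ZT8 or ZT20, 0 without ZT16, 8 without ZT24, and 0 to 3 without 1 replicate number. Differences in rhythm were 0, but 2 without ZT0, 1 without ZT4 or ZT8, and 0 to 4 without 1 replicate number. At ZT0, ZT12 and ZT20 calls were 1, 1 and 3, each 0 without the filter, 2 at ZT12 with a pseudocount of 0.1, the second being mt-Atp8, lower under DRF, and 2 at ZT20 with median-of-ratios scaling, without mt-Co1. Without 1 library they were 0 to 3 at ZT0, 0 to 2 at ZT12, 0 to 3 at ZT20 and 0 to 1 at ZT24. Between ZT24 and ZT0 they were 0 to 2 under DRF and 0 to 1 under NRF. Ratios called were 2, and 0 to 5 without 1 replicate number. With the replicate block 3 members were called in mean level and 4 under DRF, and other counts were unchanged. Replicate numbers do not pair the libraries, since 25.3% of same-numbered pairs of libraries correlated above 0.1 (different numbers 20.4%). tRNA genes with few reads (mt-Tv, mt-Ts1, mt-Tk) and 6 mRNAs with near-identical nuclear copies are limited in precision.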

Other observations

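The 6 near-identical nuclear copies were listed at lower levels than the mRNAs they match over most of a gene. Gm28661 averaged 1481 TPM beside 3553 for mt-Co2, Gm10925 1048 TPM beside 2038 for mt-Atp6, Gm28437 744 TPM beside 1972 for mt-Co3, Gm28438 155 TPM beside 678 for mt-Nd3 and Gm10222 397 TPM beside 1326 for mt-Nd4l. Gm28439, which matches the first part of mt-Nd4, averaged 350.4 TPM beside 20830. None of the 6 copies differed in mean level between regimens (limma, lowest adjusted p = 0.121, Gm28661, log2 difference 0.26 ± 0.128 SE). Under NRF, Gm28661 (amplitude 0.41 ± 0.114, limma, adjusted p = 0.016) and Gm28438 (0.26 ± 0.068, adjusted p = 0.013) were rhythmic, against 37.3% of all genes. Under DRF Gm28439 was (0.26 ± 0.085, limma, adjusted p = 0.047), against 32.4% of all genes. How reads were divided between these copies and the mitochondrial genes was not tested.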
